A study of Mus musculus with 22 samples.

Results

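RNA of 10 genes that mark macrophages and other myeloid cells was measured in sorted lung epithelial cells (ECs) of WT, AhR-/- and CYP1B1-/- mice. The genes were Ptprc, Laptm5, Tyrobp, Fcer1g, Csf1r, Adgre1, Cd68, Marco, Mrc1 and Siglecf. The list was named by what the genes mark and not by a threshold on their values, although earlier results of these data were known when it was drawn up. All 10 genes were found among the 54373 genes of both count tables, of which 21793 are protein-coding. The study asked how the aryl hydrocarbon receptor (AhR) and CYP1B1, a cytochrome P450 enzyme that AhR induces, act on allergic airway inflammation. All mice were on a C57BL/6 background, and both knockouts were germline, so that cells of every type lacked the gene. ECs were sorted from digested lungs as living single cells that were CD45-EpCAM+ by the labels, and CD31- as well by the study's methods. The steady-state group, labelled naive, held 4 WT, 3 AhR-/- and 3 CYP1B1-/- libraries. The allergic group, sensitized and challenged through the nose with house dust mite (HDM) extract, held 4 libraries of each genotype. The labels do not say whether the replicates were separate mice, so the p-values measure the spread between these libraries.

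Myeloid cells are blood and tissue cells of innate immunity, and the lung holds alveolar macrophages in the airspaces, interstitial macrophages, monocytes and dendritic cells in the tissue. Tyrobp and Fcer1g encode small membrane adaptors that pass signals from many myeloid receptors to the kinase Syk through a tyrosine motif called ITAM, whereas Csf1r is the receptor for the growth factor that keeps macrophages alive. Ptprc encodes CD45, the surface protein against which the cells were sorted, so its RNA also shows how much leukocyte RNA a library held. In such bulk samples, fewer cells of a type and less RNA per cell cannot be told apart.

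The transcription factor PU.1, encoded by Spi1, binds purine-rich sites in many myeloid promoters, and its core letters GAGGAA were searched on both strands of promoter windows of 300 bases, from 250 before to 50 after each start (RefSeq, GRCm38.p6). Windows were given for 7 of the 10 genes, and 6 of their 8 windows held the core, against 28.3% of all 32851 windows of that length. The longer form GAGGAAGT, which contains the core, was in 0 of the 8 windows and in 3.20% of all windows. The runs below are shown because the genes they precede moved together or, as Marco after HDM, stayed apart. Matches inside exons are not printed. The runs lie outside annotated exons, are written 5′ to 3′ on the gene's strand, and carry the core or its reverse complement TTCCTC in capitals. The Ptprc run lies inside the annotated gene, since the RefSeq start is downstream of the outermost one.
Ptprc, chr1:138175446-138175475, minus strand, core 158 bases before the start: tgttttcctttaGAGGAAaattgagacgaa
Cd68, chr11:69666378-69666407, minus strand, core 225 bases before the start: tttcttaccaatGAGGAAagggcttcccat
Mrc1, chr2:14229222-14229251, plus strand, core 180 bases before the start: ctcctacacatgTTCCTCtctccccttcct
Siglecf, chr7:43351264-43351293, plus strand, core 65 bases before the start: ggagggtgggtcTTCCTCatcgactttgcc
Marco, chr1:120505153-120505182, minus strand, core 146 bases before the start: tgaagtgggtcaGAGGAAgatttcctgggg
A match of these letters is a description and shows no binding.

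Total counts were 10476829 to 17707000 in the steady-state libraries and 9654825 to 17878442 in the HDM libraries. The predicted gene Gm10800 took 9.54% to 29.2% of the counts at steady state and 0.00819% to 71.9% after HDM, so the protein-coding counts left beside dominant predicted genes fell to 1180756 in the shallowest HDM library. Levels below are in CPM, counts scaled to TMM library sizes estimated over all 22 libraries, and 3 counts correspond to 0.107 to 1.36 CPM. Y-linked genes summed to 66.6 to 249.9 CPM in the 10 steady-state libraries, to 172 and 191 CPM in AhR-/- HDM replicates 3 and 4, which are called the libraries with Y-linked reads below, and to at most 0.258 CPM in the other 10 HDM libraries. Whole-gene counts of Ahr (12.8 to 25.5 CPM in AhR-/- and 9.62 to 20.0 CPM in WT libraries after HDM, 15.5 to 20.1 CPM and 6.38 to 12.3 CPM at steady state) did not show the deletion, nor did those of Cyp1b1, which were above WT in CYP1B1-/- libraries. Groups are therefore given as labelled. The 2 tables were deposited as separate runs and also differ in state and, for most libraries, in Y-linked reads, and the effects of these cannot be told apart.

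**Figure D1:**
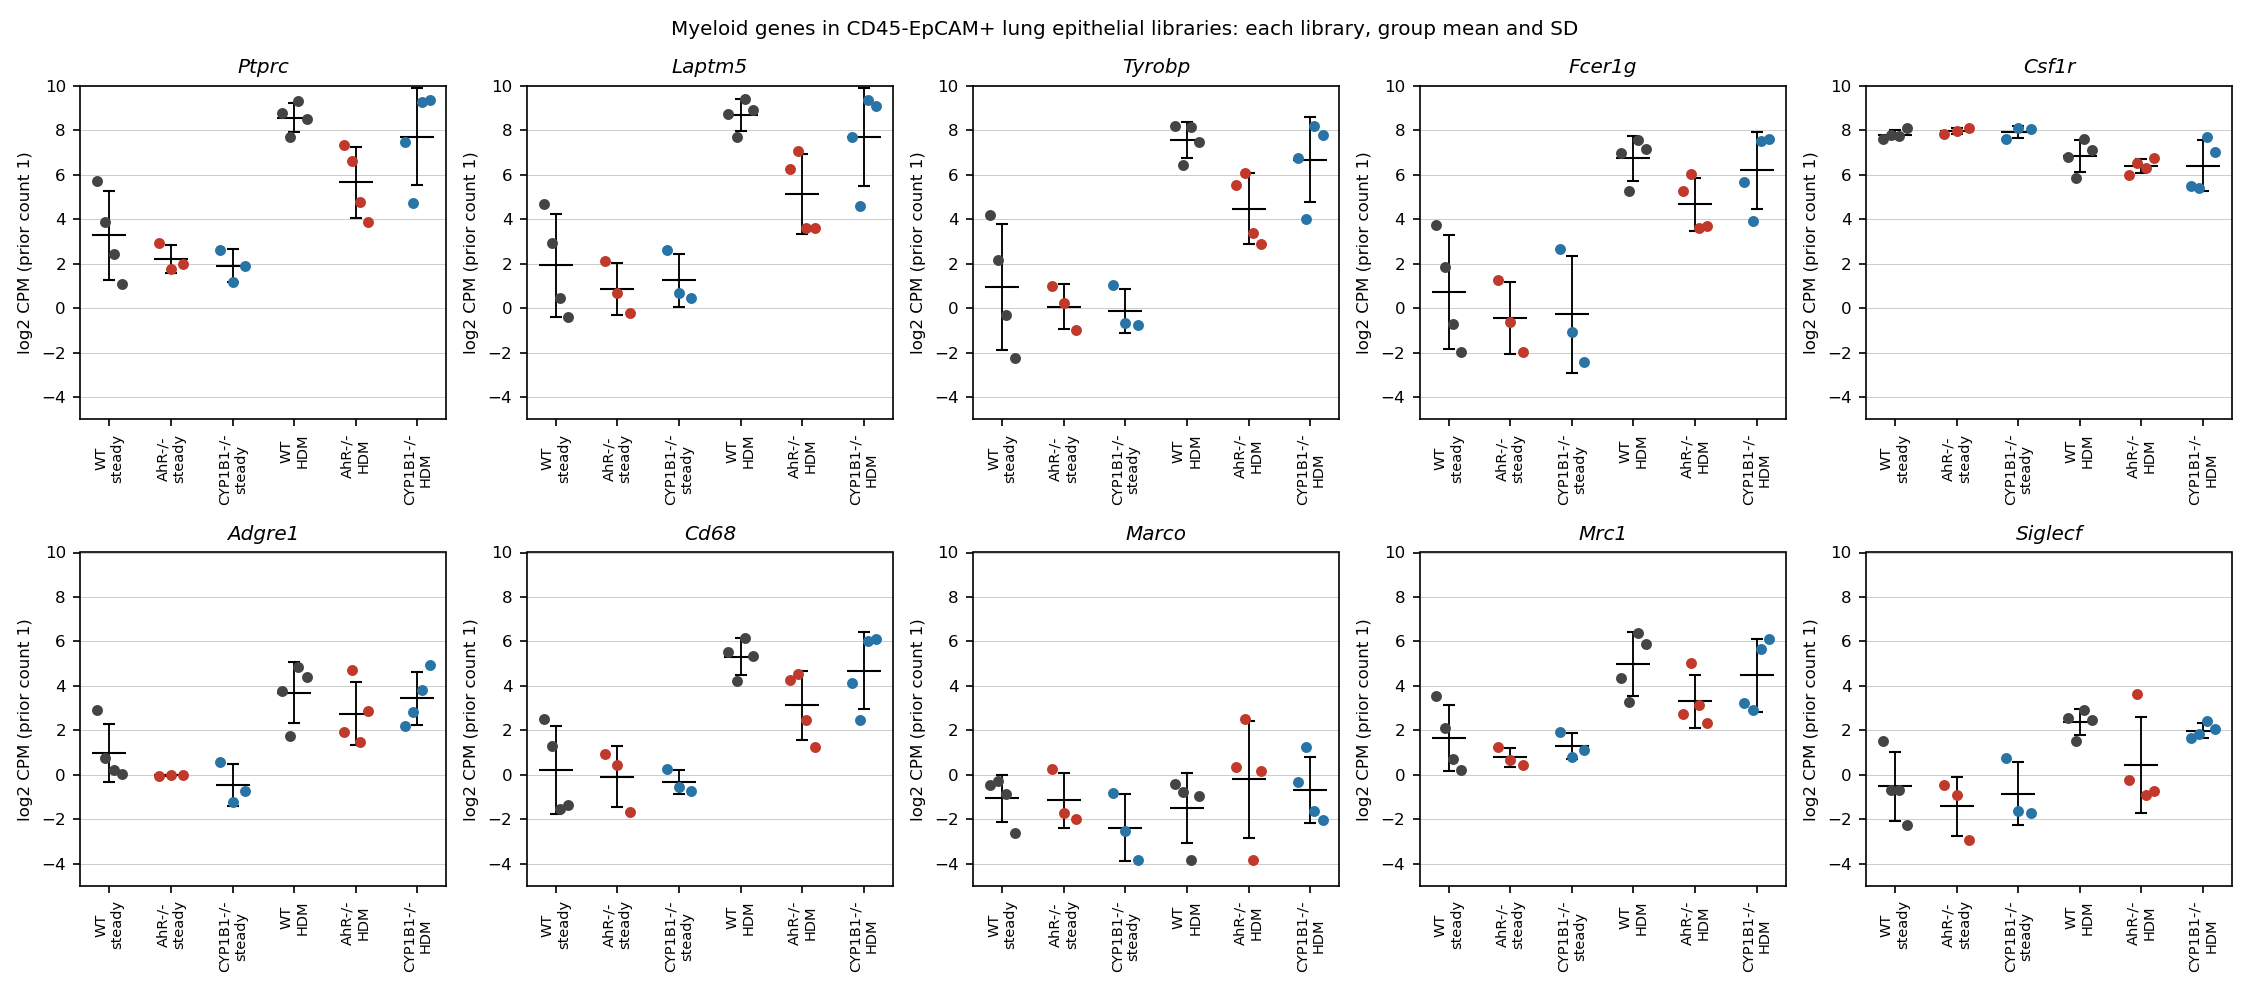
log2 CPM of each of the 10 genes (y axis, prior count 1) in the 6 groups (x axis). Points are libraries and bars show the group mean and SD. After HDM, Ptprc, Laptm5, Tyrobp, Fcer1g and Cd68 lay high in WT, lower in AhR-/- and over a wide range in CYP1B1-/- libraries, while Csf1r lay high in all steady-state libraries and Marco stayed low.

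After HDM, RNA of 8 of the 10 genes rose in WT ECs, by 2.43 to 5.66 on the log2 scale, and the median over the list was 3.80 against -0.11 over all genes tested. Of all genes tested, 38.4% were called in this comparison (edgeR's quasi-likelihood test, Benjamini-Hochberg adjusted p at most 0.05). In 5 of the 10 genes every HDM library lay above every steady-state library, which held for 17.7% of all genes. Csf1r went the other way, with every HDM library below every steady-state library, which held for 21.2% of all genes. In AhR-/- ECs 8 genes rose and 1 fell after HDM, where 20.6% of all genes were called, and in CYP1B1-/- ECs 7 rose and 1 fell, where 33.4% were called. The genes that rose did so by 2.98 to 4.99 in AhR-/- and by 3.78 to 7.32 in CYP1B1-/- ECs. In AhR-/- the calls rested on single libraries, with 1 gene called without steady-state replicate 3 (9.98% of all genes) and 0 without steady-state replicate 4 (8.93%), while the median difference of the list was 3.50 with all libraries, 3.54 without the former and 3.27 without the latter.

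The pan-leukocyte genes came first. Positions are those of the whole gene in GRCm38. Ptprc (chr1:138062861-138175708, minus strand), the CD45 phosphatase of all leukocytes, was at 52.6, 14.5, 5.42 and 2.03 CPM in the 4 WT libraries at steady state and at 436, 209, 637 and 365 CPM after HDM. It rose by 4.47 (SE 0.99, edgeR adjusted p = 0.00112). The steady-state libraries spanned a wide range, and replicate 1 alone held more than the other three together. Laptm5 (chr4:130913125-130936141, plus strand), a lysosomal membrane protein of leukocytes, was at 26.1, 7.59, 1.29 and 0.690 CPM at steady state and at 426, 211, 687 and 479 CPM after HDM in WT. Its rise of 5.66 (SE 1.17, edgeR adjusted p = 0.000617) was the largest of the list.

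The ITAM adaptors rose alongside. Tyrobp (chr7:30413760-30417585, plus strand), also called DAP12, went from 18.4, 4.44, 0.745 and 0.138 CPM in the WT libraries at steady state to 294, 86.8, 288 and 177 CPM after HDM, a rise of 5.16 (SE 1.11, edgeR adjusted p = 0.000888). Fcer1g (chr1:171229572-171234365, minus strand), the common Fc receptor gamma chain, went from 13.4, 3.58, 0.542 and 0.184 CPM to 127, 39.1, 189 and 142 CPM, a rise of 4.81 (SE 1.20, edgeR adjusted p = 0.00292). In both genes the HDM libraries lay wholly above the steady-state libraries. Of the 16 listed partners and kinases of these adaptors, 10 rose in WT after HDM and 0 fell, with a median of 2.62, where 19% of all genes rose. Among them Syk, the kinase recruited by ITAMs, rose by 4.29 (SE 0.76) and Vav1, an exchange factor downstream of it, by 5.86 (SE 0.88).

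Cd68, Mrc1 and Adgre1, used to define macrophages, rose as well. Cd68 (chr11:69664213-69666153, minus strand), an endosomal glycoprotein of macrophages and other phagocytes, was at 5.61, 2.35, 0.271 and 0.322 CPM in WT at steady state and at 46.3, 18.5, 72.0 and 40.4 CPM after HDM, and rose by 4.38 (SE 0.91, edgeR adjusted p = 0.000656). Mrc1 (chr2:14229392-14332057, plus strand), the mannose receptor, rose by 3.23 (SE 0.84, edgeR adjusted p = 0.00414), from 1.10 to 11.6 CPM up to 9.64 to 84.3 CPM. Adgre1 (chr17:57358691-57483527, plus strand), which encodes the macrophage antigen F4/80, rose by 2.60 (SE 0.78, edgeR adjusted p = 0.0108), from 0.966 to 7.40 CPM up to 3.30 to 28.5 CPM. In Mrc1 and Adgre1 the WT libraries of both states overlapped, since steady-state replicate 1 exceeded HDM replicate 2.

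The genes most tied to resident alveolar macrophages were low. Siglecf (chr7:43351341-43359531, plus strand), a sialic acid receptor of alveolar macrophages and eosinophils, was at 2.80, 0.556, 0.542 and 0.138 CPM in WT at steady state and at 5.87, 2.79, 7.46 and 5.45 CPM after HDM. It rose by 2.43 (SE 0.91, edgeR adjusted p = 0.0386) and its highest level in the 22 libraries was 12.2 CPM. The WT libraries of both states overlapped, and the call was lost without any one of WT HDM replicates 1, 3 or 4 or WT steady-state replicates 2, 3 or 4, where the difference was at least 2.05 and the edgeR adjusted p at most 0.0985. Marco (chr1:120474538-120505024, minus strand), a scavenger receptor of alveolar macrophages, was at 0.0920 to 0.741 CPM in WT at steady state and at 0 to 0.673 CPM after HDM, with a difference of -0.15 (SE 1.03, edgeR adjusted p = 0.926). Its highest level was 5.58 CPM, in AhR-/- HDM replicate 2, and it stood at 3 counts or fewer in 8 of the 22 libraries. After HDM Siglecf was also called higher in AhR-/- ECs (3.23, SE 1.10, edgeR adjusted p = 0.0412), but the libraries of both states overlapped. They stood at 0.788, 12.2, 0.455 and 0.530 CPM after HDM and at 0.659, 0.460 and 0.0615 CPM at steady state, so replicate 2 alone lay far above. The difference in CYP1B1-/- ECs was 2.55 (SE 1.04, edgeR adjusted p = 0.0661).

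Csf1r behaved differently from the other genes. It was at 197, 220, 214 and 276 CPM in WT, at 229, 252 and 274 CPM in AhR-/- and at 198, 280 and 264 CPM in CYP1B1-/- libraries at steady state. After HDM it was at 110, 58.6, 195 and 140 CPM in WT, at 64.5, 91.5, 78.3 and 109 CPM in AhR-/- and at 45.1, 41.8, 209 and 131 CPM in CYP1B1-/- libraries. It thus made up 58.7% to 98.0% of the summed CPM of the 10 genes at steady state and 6.76% to 63.3% after HDM. The fall passed the test in AhR-/- (-1.55, SE 0.44, edgeR adjusted p = 0.0151) and CYP1B1-/- ECs (-1.21, SE 0.44, edgeR adjusted p = 0.0348), and the difference in WT was -0.85 (SE 0.41, edgeR adjusted p = 0.107). Exons of Hmgxb3 on the opposite strand cover 15.1% of the exonic bases of Csf1r, and whether strand was used in counting is not given in the sources used here, so reads of both genes may be mixed. Hmgxb3 itself was at 18.4 to 55.9 CPM at steady state and at 1.36 to 14.2 CPM after HDM. Of the ligands of Csf1r, Csf1 fell in WT after HDM (-1.72, SE 0.33) and Il34 rose (2.56, SE 0.67), both by edgeR, with adjusted p of 0.000237 and 0.00417.

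Levels were also divided by the kilobases of all annotated exons of each gene, merged over its transcripts. This length, 18313 bases for Ptprc, can exceed that of the RNA present, which lowers the value. The order between genes is therefore approximate. By this measure the order of mean levels in WT after HDM was Tyrobp (317 ± 149 CPM per kb, SD, n = 4), Fcer1g (142 ± 71.5), Laptm5 (119 ± 51.7), Cd68 (35.2 ± 17.5), Ptprc (22.5 ± 9.70), Csf1r (21.8 ± 9.85), Mrc1 (6.80 ± 5.44), Adgre1 (5.14 ± 3.33), Siglecf (1.93 ± 0.694) and Marco (0.212 ± 0.149). Of the neighbours in this order, Fcer1g and Laptm5, Cd68 and Ptprc, Ptprc and Csf1r, Mrc1 and Adgre1, and Adgre1 and Siglecf differed by less than the larger of their SDs. At steady state Csf1r led in WT with 39.3 ± 5.92 CPM per kb (SD, n = 4), above Tyrobp with 8.88 ± 12.8 and Fcer1g with 5.07 ± 7.08.

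**Figure D2:**
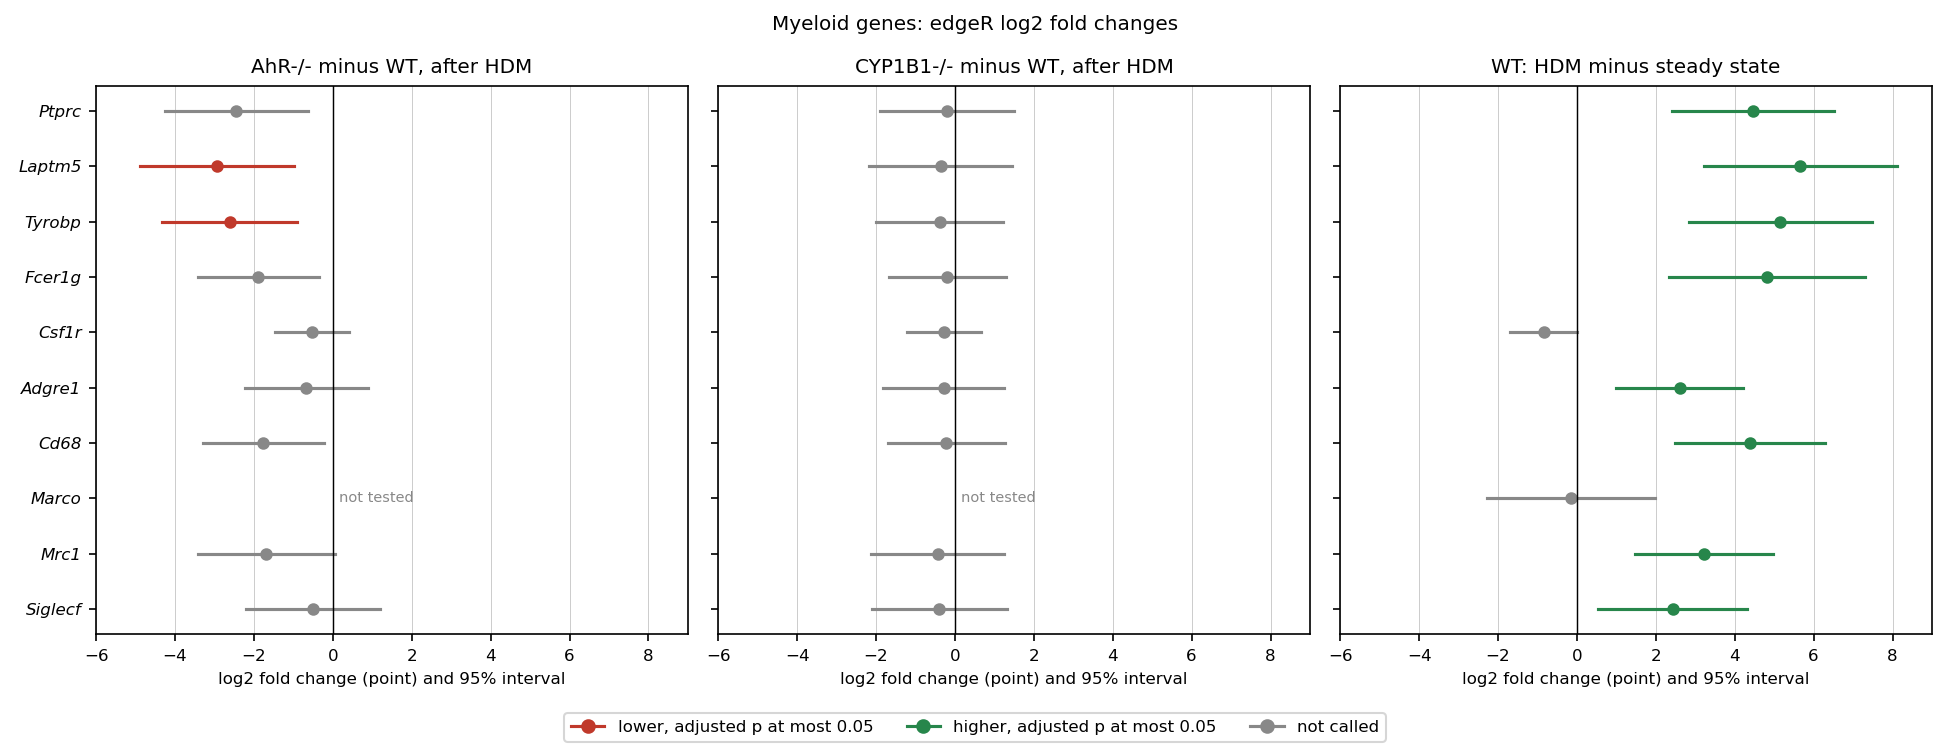
log2 fold changes of the 10 genes (points) with 95% intervals from the edgeR fit (lines) for AhR-/- against WT after HDM, CYP1B1-/- against WT after HDM, and HDM against steady state in WT. Red and green mark genes past the adjusted threshold. Laptm5 and Tyrobp were lower in AhR-/-, no gene passed in CYP1B1-/-, and 8 rose with HDM in WT.

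Whether myeloid RNA in the sorted ECs of allergic mice differed with AhR was asked by setting AhR-/- beside WT libraries. It was lower in AhR-/- ECs for 2 genes, Laptm5 and Tyrobp, of the 9 tested, and the median log2 fold change of the 9 was -1.76 against -0.0017 over all genes tested. In this comparison 22.1% of all genes were called and 12.9% were called lower, so the count of 2 of 9 stood near the background. Marco did not pass the filter on low counts. Every AhR-/- library lay below every WT library for 3 genes, Ptprc, Laptm5 and Tyrobp, which held for 9.91% of all genes, and the opposite order, seen for 0 of the list, held for 9.6%.

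Laptm5 was at 77.6, 133, 12.3 and 12.2 CPM in AhR-/- against 426, 211, 687 and 479 CPM in WT libraries after HDM, a difference of -2.93 (SE 0.90, edgeR adjusted p = 0.0396). Tyrobp was at 46.7, 68.5, 10.5 and 7.25 CPM in AhR-/- against 294, 86.8, 288 and 177 CPM in WT, a difference of -2.62 (SE 0.79, edgeR adjusted p = 0.0377). Ptprc was at 161, 99.2, 27.8 and 14.8 CPM in AhR-/- against 436, 209, 637 and 365 CPM in WT, and its difference of -2.44 (SE 0.83) did not pass (edgeR adjusted p = 0.0519). In all of these genes AhR-/- replicates 3 and 4, the libraries with Y-linked reads, were the lowest of the group.

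Fcer1g was at 38.3, 66.7, 12.3 and 13.1 CPM in AhR-/- libraries after HDM (difference from WT -1.89, SE 0.71, edgeR adjusted p = 0.0691), and Cd68 was at 18.9, 23.1, 5.46 and 2.30 CPM (-1.76, SE 0.71, edgeR adjusted p = 0.0864). Mrc1 differed by -1.68 (SE 0.80, edgeR adjusted p = 0.141). Differences were smaller for Adgre1 (-0.67, 95% interval -2.22 to 0.89), Csf1r (-0.53, -1.47 to 0.42) and Siglecf (-0.50, -2.21 to 1.21). For Adgre1, Mrc1 and Siglecf the highest AhR-/- library was replicate 2, with 26.1, 32.2 and 12.2 CPM. The likelihood ratio test and DESeq2 each called 5 of the 9 genes lower and voom 7, where they called 29.2%, 32.4% and 47.1% of all genes. The count by edgeR was 0 without any one of AhR-/- replicates 1, 3 or 4, WT replicates 1, 3 or 4, or CYP1B1-/- replicates 1 or 4, which share in the estimate of the spread, and 0% to 14.5% of all genes were called in those 8 fits. It was 5 without AhR-/- replicate 2 (29% of all genes) or CYP1B1-/- replicate 2 (25.1%). With 1 library left out the differences ran from -3.74 to -2.60 for Laptm5, -3.26 to -2.30 for Tyrobp and -3.06 to -2.11 for Ptprc. Without both AhR-/- libraries with Y-linked reads it was 0 (0% of all genes), with Laptm5 at -2.13 (edgeR adjusted p = 0.242), Tyrobp at -1.88 and Ptprc at -1.68.

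In CYP1B1-/- ECs after HDM, levels lay close to WT on average but spread widely. Of the 9 genes tested 0 were called by edgeR (0% of all genes) and 0 had an unadjusted p under 0.05. The likelihood ratio test, DESeq2 and voom also called 0 of them, and 0.00706%, 0.00706% and 0% of all genes. Ptprc was at 179, 26.2, 614 and 669 CPM in the 4 CYP1B1-/- libraries, and Tyrobp at 108, 15.9, 298 and 222 CPM. Replicate 2 was lowest in both, and replicates 3 and 4 lay within the WT range or above it. The 95% intervals of the difference from WT ran from -1.91 to 1.51 for Ptprc, -2.18 to 1.46 for Laptm5 and -1.67 to 1.29 for Fcer1g, so differences of either sign remain possible. Both knockouts were set against the same WT libraries. Directly compared with CYP1B1-/-, AhR-/- libraries had 0 genes called by edgeR (0.00706% of all genes), 5 with an unadjusted p under 0.05, and 3, 4 and 5 called by the likelihood ratio test, DESeq2 and voom, which called 17.5%, 20.5% and 30.4% of all genes. Without CYP1B1-/- replicate 2 edgeR called 5 (20.7% of all genes), without AhR-/- replicate 2 it called 3 (18.8%), and without the 5 HDM libraries over 60% Gm10800 it called 5 (8.42%). The last fit left AhR-/- replicates 1 and 2 and CYP1B1-/- replicates 3 and 4.

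At steady state no gene of the list passed the test in either knockout. In AhR-/- 0 of the 10 genes were called (0% of all genes), with 2 at an unadjusted p under 0.05 and a median of -1.59, and in CYP1B1-/- 0 were called (0.0129% of all genes), with 3 at an unadjusted p under 0.05 and a median of -1.52. These medians were not stable. Over the alternatives, which include other filters and left-out libraries, they ran from -1.92 to -0.46 in AhR-/- and from -2.79 to -0.16 in CYP1B1-/-. The likelihood ratio test, DESeq2 and voom called 0 in both comparisons as well, and of all genes they called 0.0708%, 0.0836% and 0.0708% in AhR-/- and 0.0193%, 0.0322% and 0.0515% in CYP1B1-/-. Ptprc was at 7.67, 3.33 and 3.88 CPM in AhR-/- and at 6.17, 2.18 and 3.71 CPM in CYP1B1-/-, inside the range of the WT libraries. WT replicate 1 held 139 CPM of the 9 genes other than Csf1r, and WT replicate 2 held 39.6 CPM, where the other 8 steady-state libraries held 5.66 to 29.0 CPM. WT replicate 1 also stood apart from the other 9 steady-state libraries in summed neutrophil (133 against 4.42 to 40.2 CPM), alveolar macrophage (129 against 19.8 to 55.7 CPM), B cell (36.8 against 3.90 to 12.3 CPM), T and NK cell (16.7 against 2.28 to 7.09 CPM) and endothelial genes (37.5 against 8.12 to 17.9 CPM), and their part in the result was not tested. The change of genotype difference with state, tested as an interaction, was called for 0 of the 10 genes in AhR-/- and 0 in CYP1B1-/- (0% of all genes in both), with 0 at an unadjusted p under 0.05 in each and 0 by the likelihood ratio test, DESeq2 and voom. Of all genes these 3 tools called 1.72%, 7.43% and 30.3% in AhR-/- and 0% each in CYP1B1-/-.

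**Figure D3:**
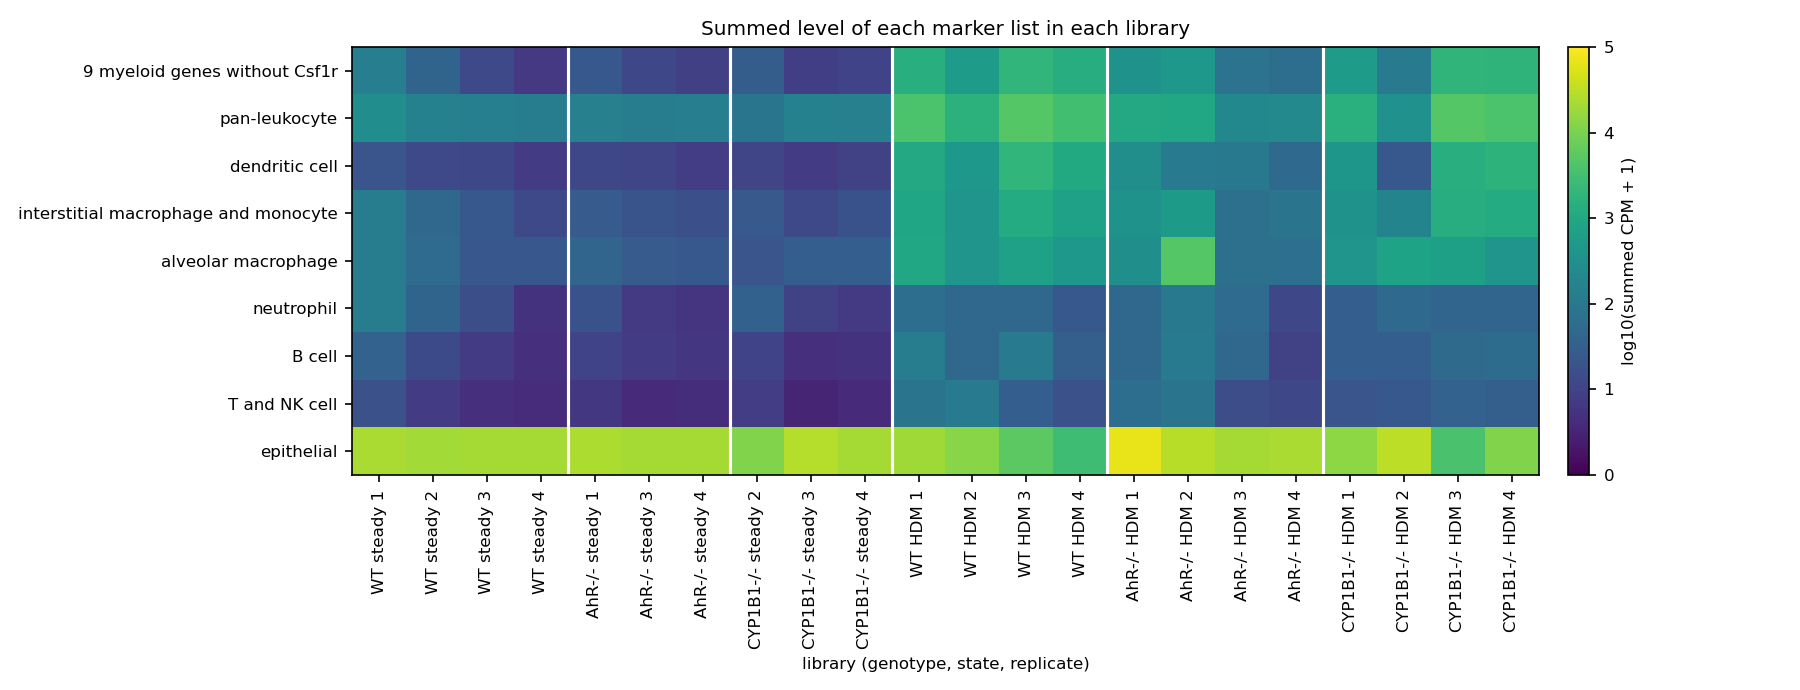
Summed CPM of the 9 genes other than Csf1r and of 8 marker lists (rows) in each of the 22 libraries (columns), on a colour scale of log10(summed CPM + 1). White lines separate the 6 groups. The 9 genes, the pan-leukocyte list and the dendritic cell list were highest in WT replicates 1, 3 and 4 and CYP1B1-/- replicates 3 and 4 after HDM, and the alveolar macrophage list was highest in AhR-/- HDM replicate 2.

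Read against marker lists, genes of several kinds of leukocyte rose beside the 10 genes in WT after HDM, where 19% of all genes rose. Of 12 alveolar macrophage genes 4 rose and 0 fell (median 0.37), namely Itgax, the integrin CD11c that dendritic cells also carry (7.16), Ear2 (6.50) and, named after their values were seen, Fabp4 (3.47) and Plet1 (2.90). In WT HDM libraries Itgax was at 67.2 to 303 CPM, Ear2 at a median of 118 CPM and at most 309.8 CPM, and Chil3, a chitinase-like protein of alveolar macrophages, at 14.6 to 526 CPM, whereas Ear1 was at most 1.01 CPM and Krt79 at most 1.21 CPM. Of 17 interstitial macrophage and monocyte genes 12 rose and 1 fell (median 3.14), with the monocyte receptor Ccr2 at 226 to 737 CPM and the complement gene C1qa, a marker of interstitial macrophages, at 1.78 to 8.48 CPM in WT HDM libraries. All 7 dendritic cell genes rose (median 6.37). Among them were Flt3, the receptor for a dendritic cell growth factor, at 87.5 to 283 CPM, Zbtb46, a transcription factor of these cells, at 36.8 to 93.1 CPM, and 2 markers of cross-presenting dendritic cells, Xcr1 at 87.6 to 175 CPM and Clec9a at 26.1 to 53.6 CPM. Summed, the dendritic cell list reached 460 to 1968 CPM in WT HDM libraries against 6.53 to 19.8 CPM at steady state. The 10 genes are therefore described by name, and not as a measure of 1 cell type.

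In the same comparison, with 19% of all genes higher and 38.4% called, other lists gave these counts. All 10 pan-leukocyte genes rose (median 4.90), and 8 of 11 genes of the CSF1 and CSF2 axis and myeloid transcription factors rose while 1 fell (median 2.89). Of the T and NK cell genes 8 of 11 rose (median 3.28) and of the B cell genes 5 of 6 (median 2.33), and these lists summed to 16.5 to 120 CPM and 31.7 to 123 CPM in WT HDM libraries. Of the eosinophil genes 3 of 4 rose (median 2.25), of the neutrophil genes 1 of 9 (median 0.14), and of 2 mast cell and basophil genes 1 fell. In lists of non-leukocytes 6 of 12 epithelial genes and 4 of 6 mesenchymal genes fell and 0 rose (medians -1.53 and -1.68), and of 6 endothelial genes 1 rose and 1 fell.

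In AhR-/- against WT after HDM, where 12.9% of all genes were lower, 5 of 7 dendritic cell genes were lower (median -2.90) and 0 higher, including Flt3 (-4.04, SE 1.02, edgeR adjusted p = 0.0268) and Zbtb46 (-2.90, SE 0.73, edgeR adjusted p = 0.0268). Of the 10 pan-leukocyte genes 7 were lower (median -2.26), with the lowest p for Ptpn18 (-1.82, SE 0.46), Ptpn6 (-2.37, SE 0.62) and Coro1a (-3.52, SE 0.99). Of the 16 partners and kinases of the ITAM adaptors 6 were lower (median -1.35), among them the signalling enzymes Plcg2 (-3.19, SE 0.73) and Lyn (-1.98, SE 0.55). In the list of the CSF1 and CSF2 axis and myeloid transcription factors 5 of 11 were lower and 1 higher (median 0.16), with Irf8, a factor of dendritic cell and monocyte development, at -4.09 (SE 0.98) and Csf2ra, a receptor chain for GM-CSF, at -2.66 (SE 0.70). Spi1, named beside the PU.1 letters above and outside the rule for named genes, was at -2.77 (SE 0.86, edgeR adjusted p = 0.0407). The calls in these and the following lists also rested on single libraries, since without any one of AhR-/- replicates 1, 3 or 4 or WT replicates 3 or 4 edgeR called 0% of all genes in this comparison.

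The counts of the macrophage lists were close to the 12.9% of all genes called lower. Of 11 alveolar macrophage genes tested 1 was lower in AhR-/- after HDM, Itgax (-2.98, SE 0.98), and the list's median was 1.96. Summed, all 12 listed alveolar macrophage genes were at 313, 4847, 68.7 and 67.5 CPM in AhR-/- libraries and at 398 to 968 CPM in WT libraries after HDM. Only AhR-/- replicate 2 thus lay above WT, and the other AhR-/- libraries lay below it. Of 17 interstitial macrophage and monocyte genes 2 were lower, the monocyte chemokine receptor Ccr2 (-2.84, SE 0.90) and the integrin Itgam (-2.51, SE 0.69), with a median of -0.11. AhR-/- replicate 2 stood apart in these lists, with Chil3 at 4370 CPM and C1qa at 34.1 CPM. Without this library, where 29% of all genes were called, 5 of the 9 genes tested were lower, Siglecf among them (-3.05, edgeR adjusted p = 0.00656). In the T and NK cell list 1 of 10 was lower, in the B cell list 0 of 6, in the neutrophil list 1 of 7, in the eosinophil list 1 of 4, in the endothelial list 1 of 6 and in the mesenchymal list 0 of 6, and 0 were higher. No mast cell and basophil gene passed the filter on low counts in the HDM table. In CYP1B1-/- against WT after HDM 0 genes of these lists were called.

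RNA of some epithelial genes was higher in AhR-/- libraries. Epcam, the protein used for the sort, was at 68.2 to 189 CPM in AhR-/-, 107 to 270 CPM in WT and 144 to 312 CPM in CYP1B1-/- libraries after HDM, and at 86.2 to 287 CPM at steady state. Of the 12 epithelial genes 3 were higher in AhR-/- than in WT after HDM and 0 lower (median 1.62), where 9.22% of all genes were higher, namely Krt18 (1.86, SE 0.49), the alveolar tight junction gene Cldn18 (1.96, SE 0.62) and the lung lineage factor Nkx2-1 (2.21, SE 0.57). Summed, the epithelial list was at 21040 to 67348 CPM in AhR-/-, 2848 to 19394 CPM in WT and 3631 to 31348 CPM in CYP1B1-/- libraries after HDM. Its part in the differences of the 10 genes between AhR-/- and WT libraries was not tested.

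**Figure D4:**
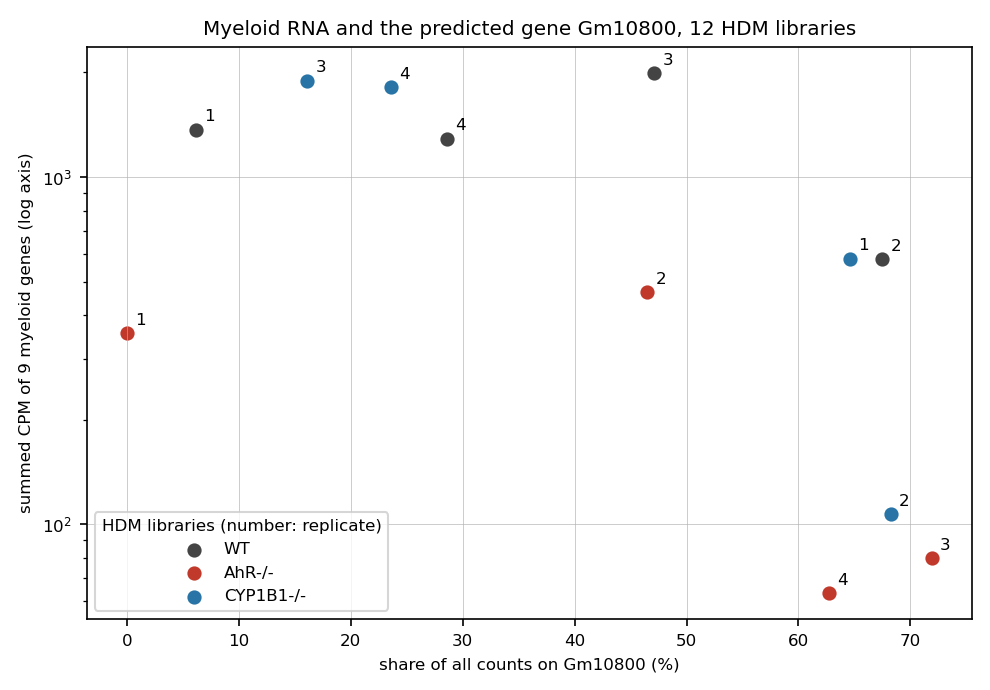
Summed CPM of the 9 genes other than Csf1r (y axis, log scale) against the share of all counts on the predicted gene Gm10800 in percent (x axis) for the 12 HDM libraries, numbered by replicate and coloured by genotype. In each genotype the libraries with the highest share held the least RNA of the 9 genes, with the exception that AhR-/- replicate 3 had a higher share than replicate 4.

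In every genotype the HDM libraries with more than 60% of counts on Gm10800 held the least RNA of the 9 genes. The 9 genes summed to 1370, 581, 1993 and 1289 CPM in WT HDM libraries, and the lowest, replicate 2, had 67.5% of its counts on Gm10800 where the others had 6.18% to 47.1%. In AhR-/- the sums were 355, 466, 80.1 and 63.4 CPM, and replicates 3 and 4 had 71.9% and 62.7%. In CYP1B1-/- the sums were 582, 107, 1895 and 1814 CPM, and replicates 1 and 2 had 64.6% and 68.2%. Without the 5 HDM libraries above 60%, an alternative chosen after the data were seen, 5 of 10 genes were called lower in AhR-/- than in WT where 12.3% of all genes were called, with smaller differences of -2.20 for Laptm5, -1.98 for Tyrobp, -1.75 for Ptprc, -1.41 for Fcer1g and -1.19 for Cd68 and edgeR adjusted p of 0.0121 to 0.0341. This fit left AhR-/- replicates 1 and 2 and WT replicates 1, 3 and 4. The AhR-/- libraries it dropped were those with Y-linked reads. Dropping only those libraries gave 0 calls (0% of all genes).

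The genes varied together across libraries of one state. As a description over libraries that share depth and preparation, Pearson's r between the log2 CPM of Ptprc, Laptm5, Tyrobp, Fcer1g and Cd68 was 0.95 to 0.99 over the 12 HDM libraries and 0.82 to 0.97 over the 10 steady-state libraries. With Mrc1, Adgre1 and Siglecf included, r was 0.55 to 0.99 and 0.69 to 0.97. Csf1r followed these 8 genes after HDM (r of 0.33 to 0.78) and ran against them at steady state (r of -0.91 to -0.63). Marco ran with them at steady state (0.52 to 0.80) and not after HDM (-0.36 to 0.18), but it was near its floor in libraries of both states, which limits both ranges. In WT after HDM Ptprc gave 28.3% to 36.0% of the 9-gene sum, Laptm5 31.1% to 37.1%, Tyrobp 13.7% to 21.5%, Fcer1g 6.73% to 11.0%, Mrc1 1.47% to 4.59% and Adgre1 a median of 1.21% and at most 1.65%. In AhR-/- libraries Ptprc gave 21.3% to 45.4%, Laptm5 15.3% to 28.5%, Tyrobp 11.4% to 14.7% and Fcer1g 10.8% to 20.6%, and in CYP1B1-/- libraries Ptprc gave 24.5% to 36.9%, Laptm5 22.4% to 35.9%, Tyrobp 12.2% to 18.6% and Fcer1g 8.80% to 14.3%. Mrc1 gave 1.84% to 10.8% in AhR-/- and 1.58% to 7.01% in CYP1B1-/- libraries. Adgre1 gave 1.06% to 11.4% and 0.749% to 6.47%.

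Among 13567 genes tested in both tables, the 10 outside the lists whose pattern was most like the mean of the 10 genes were Cd33, Bin2, Myo1f, Ctss, Fxyd5, Ppp2r1b, Tgfbi, Tlr13, Lrmp and Themis2. Likeness was the smaller of Pearson's r over the 12 HDM and over the 10 steady-state libraries. It was highest for Cd33, at 0.97 after HDM and 0.95 at steady state, and reached 0.93 for Themis2. Ctss had r of 0.98 after HDM and 0.94 at steady state.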

How the data were processed

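RNA of sorted ECs was sequenced after template-switch cDNA amplification. After bbduk trimming, the authors aligned reads to mm10 by GSNAP, and featureCounts 2.0.0 gave the deposited values, raw counts per gene. Strand and multi-mapping settings are not given in the sources used here.

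Of the 54373 Ensembl identifiers in both tables, 54147 were in GENCODE M21, and 21793 protein-coding genes were kept. edgeR 4.0.16 in R 4.3.3 was run with filterByExpr (minimum count 10, total 15), TMM and robust glmQLFit and glmQLFTest, per table with all genotypes in one fit, and over all 22 libraries for effects of state and interactions. Standard errors were taken from the fold change and its F statistic. Genes were called at 0.05 after Benjamini-Hochberg adjustment over all genes tested. Scripts were tested on simulated data. No libraries were duplicates.

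The 10 genes and the marker lists were chosen with earlier results of these data known. Of each list the first 4 genes and the 3 of lowest p in AhR-/- against WT after HDM could be named, and outside the lists the 10 most like genes. Alternatives were the likelihood ratio test, DESeq2 1.42.0, limma 3.58.1 voom with sample weights, RLE normalization, other filters, all genes, a replicate block and left-out libraries. Promoter sequences are from RefSeq (GRCm38.p6).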

Additional observations from a re-analysis of the deposited data

Results flagged for a closer look

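Within groups of 4 libraries, 2 of 44 tested sets of values held a library far from the rest by Dixon's test at the 95% level, where chance alone flags about 1 in 20. Siglecf in AhR-/- HDM replicate 2 stood at 3.62 log2 CPM, against -0.93 to -0.22 in the other libraries of the group. Marco in WT HDM replicate 3 stood at -3.83 log2 CPM, its value at 0 counts, against -0.95 to -0.43 in the others.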

How the results depend on the processing

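The number of the 10 genes called in AhR-/- against WT after HDM, 2 by edgeR's quasi-likelihood test, was 5 by the likelihood ratio test, 5 by DESeq2 and 7 by voom, 0 without both AhR-/- libraries with Y-linked reads, 5 without the HDM libraries over 60% Gm10800 (chosen after seeing the data, and dropping the same AhR-/- libraries among others), and 0 to 5 with 1 library left out. In AhR-/- against CYP1B1-/- after HDM, 0 became 3, 4 and 5 by these 3 tools, 5 without the libraries over 60% Gm10800, and 0 to 5 with 1 library left out. With at least 10 counts in every library, which leaves 4 of the genes in the joint fit, 3, 4 and 4 were called for HDM against steady state in WT, AhR-/- and CYP1B1-/-. With 1 library left out, that comparison gave 0 to 9 calls in AhR-/-, with 1 without AhR-/- steady-state replicate 3 and 0 without replicate 4, 7 to 8 in WT and 7 to 9 in CYP1B1-/-. Leaving out the 6 dominant predicted genes, also chosen after seeing the data, moved none of these counts. The cause of these shifts was not tested.

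Replicate numbers did not pair the libraries: deviations of same-numbered libraries correlated at -0.022 to 0.246 at steady state and -0.480 to 0.681 after HDM, with 4 of 8 and 4 of 12 pairs over 0.1. With a replicate block 0 genes were called in AhR-/- against WT after HDM, no other count of calls moved by over 1.5 times, and the interaction of AhR with state turned to -0.80 for Fcer1g and -0.33 for Siglecf.

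Differences that changed sign were all uncalled. Siglecf in AhR-/- against WT after HDM was 0.20 without the libraries with Y-linked reads and 0.18 without those over 60% Gm10800. The interaction of AhR with state was, by voom, -1.21 for Fcer1g, -0.37 for Adgre1 and -1.52 for Siglecf. Without the libraries with Y-linked reads it was 0.30 for Ptprc, 0.56 for Tyrobp and 0.34 for Mrc1, and without those over 60% Gm10800 it was 0.23, 0.45 and 0.13. With 1 library left out, this interaction ran from -1.45 to 1.59 for Fcer1g, -0.29 to 1.25 for Adgre1, -1.68 to 1.36 for Siglecf, -2.03 to 0.29 for Tyrobp and -1.26 to 0.28 for Mrc1, and Marco in HDM against steady state in WT ran from -0.56 to 0.19. RLE normalization moved the median of all genes for HDM against steady state in CYP1B1-/- from -0.02 to 0.11. The shallowest HDM library, where 3 counts are 1.36 CPM, limits what can be said of Marco and Siglecf.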
